A study of Mus musculus with 32 samples.

Results

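The 10 immediate early genes Fos, Fosb, Jun, Junb, Atf3, Egr1, Ier2, Nr4a1, Csrnp1 and Myc were followed through 32 mouse RNA-seq libraries. They were chosen by name, and each matched 1 row of the 43035 gene rows in the deposited tables. Mice with inducible DUX4, whose misexpression in muscle underlies facioscapulohumeral dystrophy, were compared with wild-type (WT) mice. Every mouse, WT included, was given chow with doxycycline, so doxycycline itself was shared by all groups. The question asked here of the 10 genes was how cells sorted from muscle differed from whole muscle, and how DUX4 differed from WT within each.

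There were 8 groups, called here by their labels. From hind limb muscle, endothelial cells were sorted by CD31, giving CD31DUX (DUX4, n = 4) and CD31WT (WT, n = 3). The Pdgfrα+ sort took fibro-adipogenic progenitors (FAPs), which lie between the fibres, and gave PDGDUX (DUX4, n = 4) and PDGWT (WT, n = 3). Unsorted tissue was taken at 2 weeks (IDUX.2Weeks with DUX4, n = 5, and WT.2Weeks, n = 5) and at 16 weeks (IDUX.16Weeks with DUX4, n = 4, and WT.16Weeks, n = 4). The sources used here do not give the promoter that drives DUX4, the age or sex of the mice, the muscle of the whole-muscle libraries, the time point of the sorted cells, or whether each library is a separate animal. The p-values therefore measure the spread between these libraries, which may be technical. Sorted cells and whole muscle also had different RNA extraction and library kits, so that cell type, dissociation, sorting and library chemistry cannot be told apart in any comparison between them.

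Immediate early genes are transcribed within minutes of a stimulus from factors that already stand ready in the cell, without new protein synthesis, and their mRNAs are short-lived. Growth factors, calcium, mechanical load, stress and the enzymatic dissociation of tissue are known to induce them. Most of the 10 encode transcription factors. Fos, Fosb, Jun and Junb encode subunits of the dimeric factor AP-1, and Atf3 encodes a stress-induced relative that can pair with Jun proteins. Egr1 encodes a zinc finger factor of the serum response, Nr4a1 an orphan nuclear receptor, Csrnp1 a nuclear protein first found as a target of axin, Ier2 a small nuclear protein, and Myc the growth-promoting factor that pairs with Max.

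The promoters of 4 members are shown as examples, picked because they carry a short motif found in 6 of the 7 members searched. Whether the motif has a part in the levels of the 10 genes was not tested. Each sequence is the 250 bases before the RefSeq gene start (GRCm38.p6), written 5′ to 3′ on the gene's strand. Capitals mark TGACG, the core of the cyclic AMP response element that CREB and ATF proteins bind, or CGTCA where the match is on the opposite strand, and the TATA box of Fos, TATAAA.
Fos, chr12:85473640-85473889, plus strand: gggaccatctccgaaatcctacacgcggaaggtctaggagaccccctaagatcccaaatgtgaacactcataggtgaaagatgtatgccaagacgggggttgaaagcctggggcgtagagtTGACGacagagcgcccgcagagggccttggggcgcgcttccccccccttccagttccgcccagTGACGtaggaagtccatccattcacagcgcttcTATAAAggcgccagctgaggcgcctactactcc
Fosb, chr7:19310046-19310295, minus strand: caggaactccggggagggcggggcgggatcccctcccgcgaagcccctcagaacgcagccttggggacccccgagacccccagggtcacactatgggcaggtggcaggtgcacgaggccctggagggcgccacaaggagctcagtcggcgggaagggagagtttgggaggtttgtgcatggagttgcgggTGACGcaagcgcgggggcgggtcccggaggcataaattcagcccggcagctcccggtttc
Junb, chr8:84978749-84978998, minus strand: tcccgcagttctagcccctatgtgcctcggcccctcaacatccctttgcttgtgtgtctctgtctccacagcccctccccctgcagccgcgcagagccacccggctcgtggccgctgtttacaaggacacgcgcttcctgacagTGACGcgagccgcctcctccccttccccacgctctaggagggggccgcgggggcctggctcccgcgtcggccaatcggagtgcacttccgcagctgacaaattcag
Nr4a1, chr15:101266596-101266845, plus strand: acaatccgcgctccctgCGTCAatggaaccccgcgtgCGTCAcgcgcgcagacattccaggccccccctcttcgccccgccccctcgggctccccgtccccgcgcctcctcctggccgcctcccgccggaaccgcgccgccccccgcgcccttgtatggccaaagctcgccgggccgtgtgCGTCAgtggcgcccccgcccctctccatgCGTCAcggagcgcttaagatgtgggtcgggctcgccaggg

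Such windows were at hand for 7 of the 10 genes (Fos, Fosb, Jun, Junb, Atf3, Nr4a1 and Csrnp1, which has 4 start sites). TGACG was found on either strand in the windows of 6 of these 7 genes, the exception being Jun. Counted by window, 9 of the 10 windows of these genes held it. Of all 32851 mouse promoter windows of the same length, 17.8% held it. Fos held it 2 times, starting 129 and 66 bases before its start, and Nr4a1 4 times, while Fosb, Junb and Atf3 held it 1 time each. The full palindrome TGACGTCA, held by 1.55% of all windows, and the CArG box of serum response factor, held by 1.47%, had no match in the members' windows. TGACTCA, the AP-1 site, matched in 1 of the 7 genes and 1 of the 10 windows (4.46% of all windows), as did TATAAA (12.4%). The EGR site GCGGGGGCG matched in Fosb and Nr4a1, in 2 of the 10 windows (2.57%). These matches describe the letters in these windows and were tied to no measurement.

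On the mouse genome GRCm38, Fos (ENSMUSG00000021250) lies on chromosome 12 at 85473890 to 85477273 and Fosb (ENSMUSG00000003545) on chromosome 7 at 19302696 to 19310051. Jun (ENSMUSG00000052684) lies on chromosome 4 at 95049034 to 95052222, and the antisense gene Junos overlaps it. Junb (ENSMUSG00000052837), on chromosome 8 at 84974484 to 84978718, is overlapped by Prdx2 on the opposite strand. Atf3 (ENSMUSG00000026628) lies on chromosome 1 at 191170296 to 191218039, Egr1 (ENSMUSG00000038418) on chromosome 18 at 34859823 to 34864984, and Ier2 (ENSMUSG00000053560) on chromosome 8 at 84661331 to 84662852. Nr4a1 (ENSMUSG00000023034) and Myc (ENSMUSG00000022346) are both on chromosome 15, at 101254269 to 101274795 and 61985391 to 61990374. Csrnp1 (ENSMUSG00000032515), on chromosome 9 at 119971163 to 119984658, shares its strand with an overlapping gene, Cx3cr1, and has an antisense neighbour, 1700019L13Rik. Whether reads were counted by strand is not given, so the counts of Jun, Junb and Csrnp1 may hold reads of the overlapping genes on the opposite strand. Reads of Cx3cr1, on the same strand as Csrnp1, could not be told apart by strand in either case.

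Values are estimated counts scaled to CPM (counts per 1e6 counts) with trimmed-mean (TMM) normalisation over all 32 libraries. In units of 1e6, total counts per library ran from 6.07 to 20.7, so that a count of 0 allowed up to 0.145 CPM in the deepest and 0.494 CPM in the shallowest library, counting 3 reads as the limit and covering counting error only. Log2 changes, standard errors (SE) and p-values are from edgeR's quasi-likelihood test, adjusted by the Benjamini-Hochberg method over all genes of a fit, with 0.05 as the threshold for a call. The labels were checked against markers. The summed level of 8 endothelial markers was 3142 to 3843 CPM in CD31DUX and 4432 to 5113 CPM in CD31WT, against 221 to 850.4 CPM over the whole-muscle libraries. The summed level of 8 FAP markers was 118238 to 134593 CPM in PDGDUX and 91261 to 127873 CPM in PDGWT, but it was also 23343 to 28443 CPM in CD31DUX and 7809.9 to 9942 CPM in CD31WT, against 275 to 1814 CPM over the whole-muscle libraries. Both endothelial groups thus held FAP markers above whole muscle, with all 8 called higher, as were all 8 endothelial markers. Muscle fibre markers summed to at most 717 CPM in any sorted library and to at least 62953 CPM in any whole-muscle library.

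All 10 immediate early genes were higher in sorted cells than in whole muscle, in endothelial cells and in FAPs, with DUX4 and in WT. Their summed share of all counts was 2.13 to 2.48% for CD31DUX libraries and 2.04 to 2.36% for CD31WT libraries. For PDGDUX libraries it was 1.75 to 2.89%, and for PDGWT libraries 2.59 to 2.77%. For IDUX.2Weeks libraries it was 0.0213 to 0.0488% and for WT.2Weeks libraries 0.0163 to 0.0259%, while IDUX.16Weeks libraries had 0.023 to 0.0272% and WT.16Weeks libraries 0.0262 to 0.0542%. No sorted library overlapped with a whole-muscle library in any of the 10 genes. In bulk RNA, more cells that express a gene and more RNA per cell cannot be told apart.

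**Figure D1:**
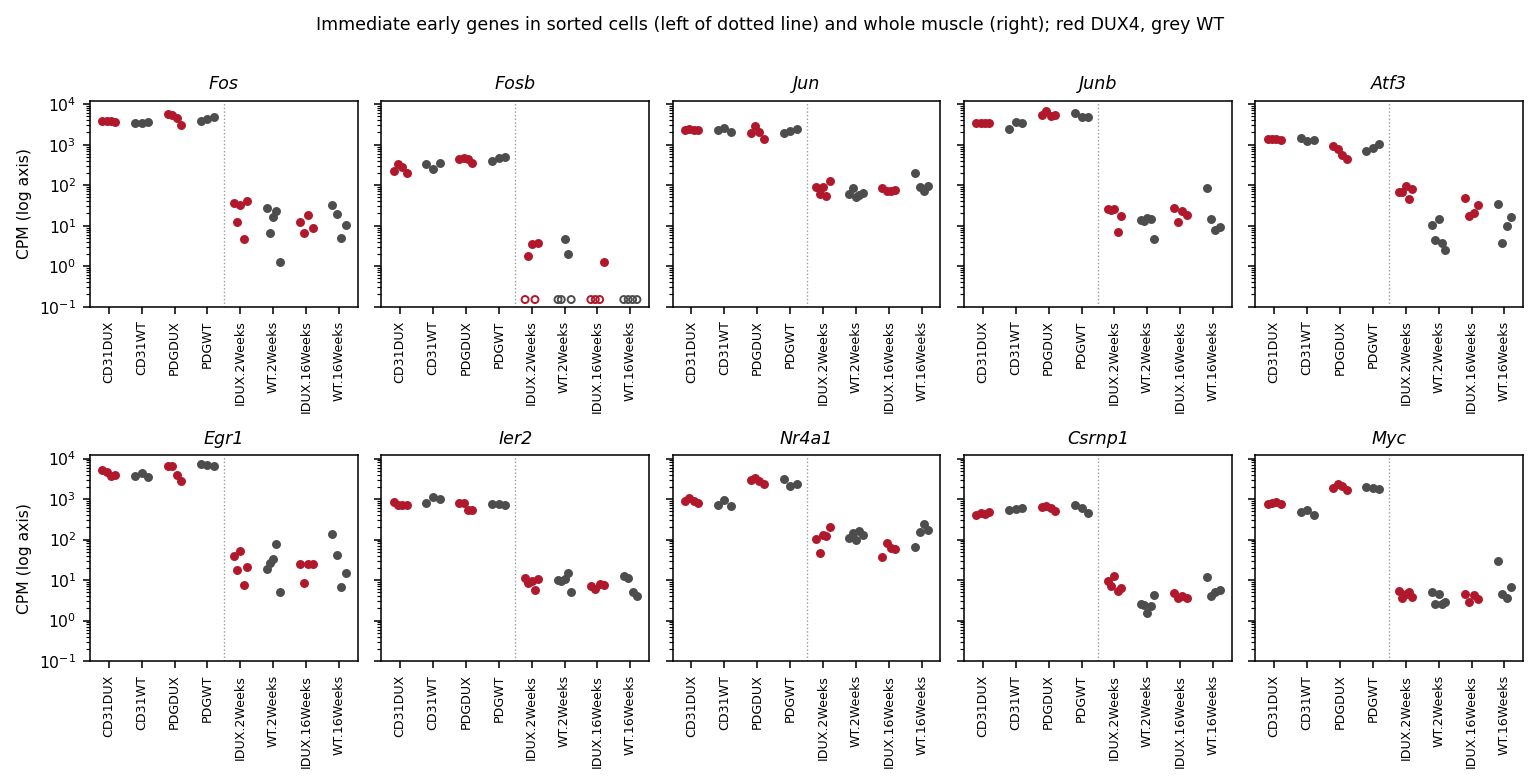
CPM of each immediate early gene in each library (log axis), with sorted-cell groups left of the dotted line and whole-muscle groups right of it; red dots are DUX4 and grey dots WT libraries, and open circles at the bottom are libraries in which Fosb was listed at 0. For each gene the 14 sorted libraries lie above the 18 whole-muscle libraries, with the narrowest gap for Nr4a1.

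The AP-1 subunit genes were far higher in the sorted cells. Fos had a lowest level of 3116, a median of 3891 and a highest level of 5697 CPM over the 14 sorted libraries, against 1.27, 14.1 and 40.4 CPM over the 18 whole-muscle libraries. The lowest sorted library was thus 77.1 times the highest whole-muscle library. By CPM per kilobase of exon, Fos ranked between 6 and 30 among 42459 genes in the sorted libraries, and between 2061 and 12458 in whole muscle.

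Junb, which often opposes Jun within AP-1, had 2475, 4177 and 6858 CPM (lowest, median, highest) in sorted cells, against 4.67, 15.1 and 86.1 CPM in whole muscle. The whole-muscle maximum came from WT.16Weeks replicate 1. Jun had 1395, 2292 and 2919 CPM in sorted cells, against 51.4, 75.2 and 200.3 CPM in whole muscle. Its lowest sorted library was 6.96 times the highest whole-muscle library, a smaller gap than for Fos or Junb.

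Fosb, whose protein can replace Fos in the dimer, had 195, 361 and 505 CPM in sorted cells. In whole muscle it was listed at exactly 0 in 12 of the 18 libraries and at 26 to 53 counts (1.28 to 4.72 CPM) in the other 6, with no library between. A value of exactly 0 beside such counts can be a failed estimate of the quantification, so no mean or fold change of Fosb against whole muscle is given, and its calls, ranges and order against whole muscle below rest on the values as listed. Its lowest sorted library was 41.4 times the highest whole-muscle library. Atf3 had 446, 1130.5 and 1449 CPM in sorted cells, against 2.44, 19 and 93.3 CPM in whole muscle, the highest whole-muscle value being in IDUX.2Weeks.

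The other 5 genes were likewise separate. Egr1 had 2768, 4569 and 7137 CPM in sorted cells, against 5.2, 24.7 and 139.6 CPM in whole muscle. Ier2 had 522, 762 and 1094 CPM in sorted cells, against 4.07, 8.95 and 14.6 CPM in whole muscle. Csrnp1 had 409, 545 and 718 CPM in sorted cells, against 1.57, 4.51 and 12.4 CPM in whole muscle. The lowest sorted library was 19.8 times the highest whole-muscle library for Egr1, 35.8 times for Ier2 and 32.9 times for Csrnp1.

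Myc had 414, 1239 and 2386 CPM in sorted cells, against 2.49, 4.35 and 30.3 CPM in whole muscle. Nr4a1 was the exception in size: it had 677, 1549 and 3367 CPM in sorted cells, against 37.3, 117 and 238 CPM in whole muscle, and its lowest sorted library was only 2.84 times the highest whole-muscle library. As background, among the 14430 genes averaging 1 CPM or more, 15% had all sorted libraries above all whole-muscle libraries.

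In the tests, each sorted group was set against the mean of the 2 whole-muscle groups of its genotype, so that the endothelial and FAP comparisons of a genotype share their whole-muscle libraries. All 10 members were called higher in each of the 4 comparisons. The share of all 18399 genes called higher was 39% for CD31DUX, 38.2% for CD31WT, 33.2% for PDGDUX and 35.6% for PDGWT. The median log2 change of the 9 members other than Fosb was 6.54 in CD31DUX, 6.74 in CD31WT, 6.68 in PDGDUX and 7.14 in PDGWT, against medians over all genes of 0.17, 0.19, -0.16 and 0.04 in that order. Scaling by library totals alone moved the median of all genes by 0.23, 0.67, -0.14 and 0.39 in that order, and in CD31WT it moved the share of higher among called genes to 70.3%, against 55%.

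Fos was higher by a log2 change of 7.80 ± 0.55 (SE, adjusted p = 3.45e-13) in CD31DUX, 7.79 ± 0.56 (6.43e-13) in CD31WT, 8.09 ± 0.56 (1.9e-13) in PDGDUX and 8.10 ± 0.57 (3.21e-13) in PDGWT. Jun was higher by 4.88 ± 0.22, 4.76 ± 0.23, 4.72 ± 0.22 and 4.66 ± 0.23 in the same order. These 4 changes of Jun lay within their SE of each other. The changes of Nr4a1 ranged more widely, with 3.41 ± 0.26 in CD31DUX, 2.46 ± 0.27 in CD31WT, 5.09 ± 0.27 in PDGDUX and 4.13 ± 0.28 in PDGWT.

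Atf3 was higher by 4.88 ± 0.38 in CD31DUX and 3.87 ± 0.37 in PDGDUX, and by 6.95 ± 0.43 in CD31WT and 6.31 ± 0.42 in PDGWT. The difference of these changes between the genotypes was not tested as such, and whole muscle of the 2 genotypes differed in Atf3 at 2 weeks. Myc was higher by 7.55 ± 0.35 in CD31DUX, 6.23 ± 0.34 in CD31WT, 8.90 ± 0.37 in PDGDUX and 8.21 ± 0.37 in PDGWT. For Junb, Egr1, Ier2 and Csrnp1 the changes lay between 6.25 and 8.16 over the 4 comparisons. All 10 members were called in each of these comparisons when any 1 library was left out and when only the 2-week or only the 16-week whole muscle was used.

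**Figure D2:**
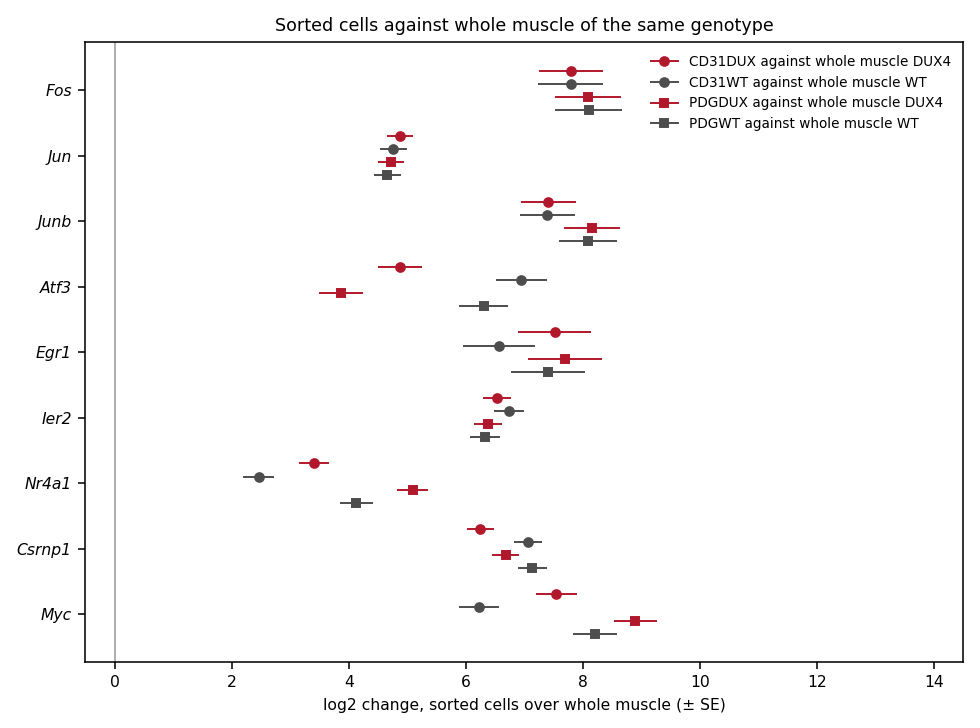
Log2 change of 9 immediate early genes in sorted cells over whole muscle of the same genotype (points, with SE bars); circles are endothelial cells and squares FAPs, red DUX4 and grey WT. Fosb is left out because it was listed at 0 in 12 whole-muscle libraries. Every point lies above 2, with Nr4a1 in CD31WT lowest at 2.46 and Myc in PDGDUX highest at 8.90.

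Genes that act beside the 10 members were also higher in sorted cells, while genes of the signalling route above them were called in both directions. Of 12 other genes of the AP-1 family, 11 were higher and 0 lower in CD31DUX, 11 and 1 in CD31WT, 11 and 0 in PDGDUX, and 10 and 0 in PDGWT. Jdp2, whose product represses AP-1 sites, averaged 78 ± 11 CPM in CD31DUX (SD, n = 4) and 112 ± 30.8 CPM in PDGDUX (n = 4), against 3.13 ± 0.372 CPM in IDUX.16Weeks (n = 4). Of 17 other early-response transcription factors, 16 were higher and 1 lower in each of the 4 comparisons, led by Ier3 and Ier5.

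Feedback regulators end the early response, for example the phosphatases of the Dusp family that switch off MAP kinases and Nfkbia, the inhibitor of NF-kB. Of 21 such genes, 19 were higher and 1 lower in CD31DUX and in CD31WT, 17 were higher and 0 lower in PDGDUX, and 19 and 0 in PDGWT. Nfkbia averaged 1941 ± 261 CPM in CD31DUX and 2181 ± 396 CPM in CD31WT, against 24.1 ± 2.76 CPM in IDUX.16Weeks and 30.4 ± 7.28 CPM in WT.16Weeks. All 14 secreted early-response products tested were higher in each of the 4 comparisons. Il6, a cytokine gene named after its values were seen, was listed at 0 in every whole-muscle library outside IDUX.16Weeks, where it reached at most 0.0513 CPM, and stood at 1359.9 ± 742 CPM in PDGDUX, 634 ± 57.3 CPM in PDGWT, 449 ± 106 CPM in CD31DUX and 470.5 ± 66.4 CPM in CD31WT. Ptgs2, the inducible cyclooxygenase, was higher by a log2 change of 9.93 ± 0.32 in PDGDUX (adjusted p = 4.22e-21) and 11.94 ± 0.37 in PDGWT (2.5e-21). Its mean was under 1 CPM in IDUX.2Weeks, WT.2Weeks and WT.16Weeks, so that the size of these changes rests on low whole-muscle values.

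Upstream kinases and factors were called lower more than higher. Of 14 such genes, 3 were higher and 7 lower in CD31DUX, 3 and 9 in CD31WT, 3 and 8 in PDGDUX, and 1 and 10 in PDGWT. Of all genes, 32.2% were called lower in CD31DUX, 31.2% in CD31WT, 36.6% in PDGDUX and 32.3% in PDGWT. Scaling by library totals alone gave 4 higher and 5 lower in CD31DUX, 5 and 5 in CD31WT, and 2 and 8 in PDGDUX and in PDGWT. Rps6ka3, a kinase that phosphorylates CREB, was lower by 2.13 ± 0.16 on the log2 scale in PDGDUX and by 2.56 ± 0.19 in PDGWT, whereas Mapk3, which encodes ERK1, was higher by 1.49 ± 0.12 in CD31DUX.

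Other stress-related lists moved with the members. Of 12 heat shock genes, 10 were higher and 1 lower in CD31DUX, 9 and 1 in CD31WT, 9 and 1 in PDGDUX, and 10 and 1 in PDGWT. Of 10 glucocorticoid targets, 8, 7, 7 and 6 were higher in the same order, and none was called lower. Sgk1, a kinase gene induced by glucocorticoids, was higher by 4.63 ± 0.21 in CD31DUX and 3.39 ± 0.21 in CD31WT. The part of these lists in the levels of the 10 members was not tested.

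**Figure D3:**
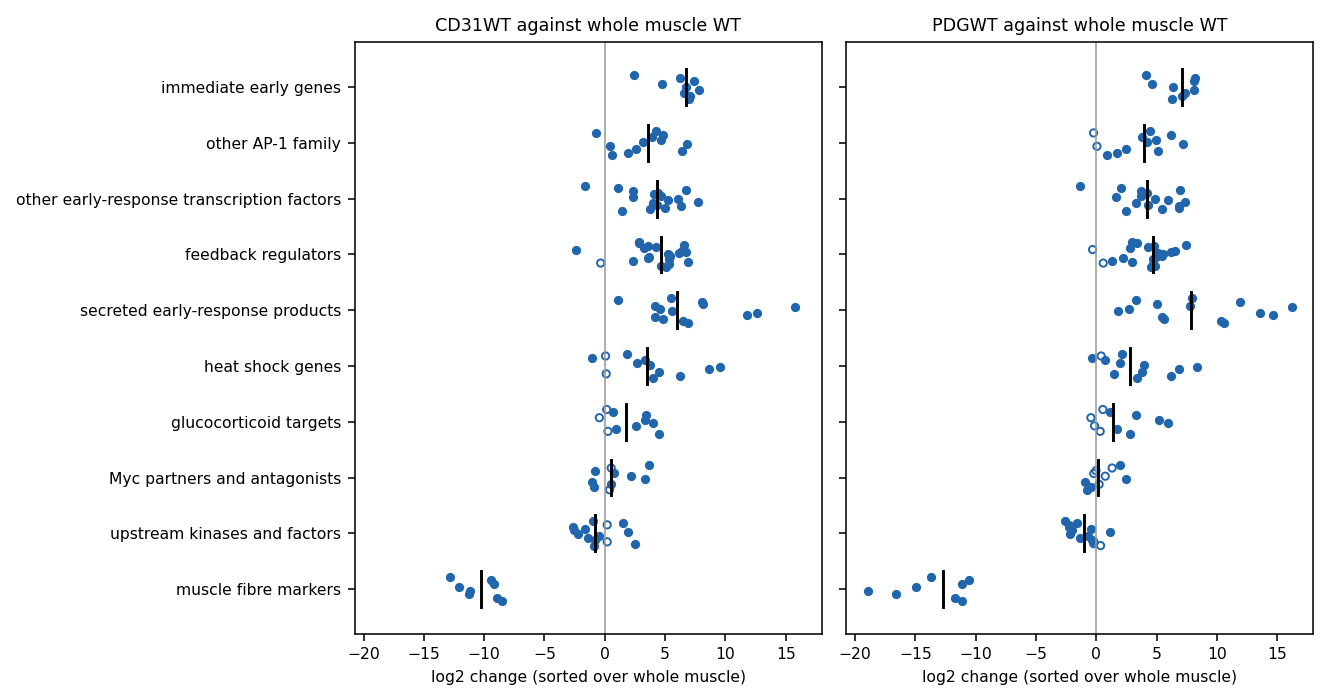
Log2 change of each tested gene of 10 lists in CD31WT (left) and PDGWT (right) over WT whole muscle; filled dots are called genes, open dots are not, and black bars are list medians. Immediate early genes (without Fosb), other AP-1 genes, other early-response factors, feedback regulators and secreted products lie mostly to the right of 0, upstream kinases mostly left of it, and muscle fibre markers below -8.

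Between the sorted cell types, FAPs differed from endothelial cells in 6 of the 10 members with DUX4, where 33.7% of all genes were called, and in 6 of the 10 in WT, where 31.1% were. The share of members called was thus above that of all genes, a difference that was not tested. In WT the count was 3 to 5 of the 10 members when 1 library was left out. Myc and Nr4a1 were higher in FAPs in both genotypes, and Atf3 was lower. Nr4a1 was at 3028, 3367, 2805 and 2376 CPM in PDGDUX, against 918, 1034, 893 and 777 CPM in CD31DUX. It was at 3075, 2064 and 2342 CPM in PDGWT, against 729.9, 952 and 677 CPM in CD31WT. All FAP libraries lay above all endothelial libraries, and the log2 changes were 1.71 ± 0.16 with DUX4 (adjusted p = 3.63e-07) and 1.69 ± 0.18 in WT (1.85e-06).

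Myc was at 1919.6, 2386, 2054 and 1641 CPM in PDGDUX, against 753, 799.9, 838 and 741 CPM in CD31DUX. It was at 1957, 1907 and 1755 CPM in PDGWT, against 467, 545 and 414 CPM in CD31WT. The groups did not overlap in either genotype, with log2 changes of 1.39 ± 0.13 with DUX4 (adjusted p = 3.01e-07) and 2.01 ± 0.15 in WT (2.73e-08). Junb was higher by 0.78 ± 0.14 with DUX4 and 0.72 ± 0.16 in WT, and Fosb by 0.75 ± 0.17 and 0.57 ± 0.19. The Fosb call in WT (adjusted p = 0.033) was lost with RLE size factors, with only the groups compared, and without CD31WT replicates 1 or 2 or PDGWT replicates 2 or 3 (adjusted p from 0.0541 to 0.153). Scaling by library totals alone, which moved the median of all genes by -0.40 with DUX4 and -0.30 in WT, ended the calls of Fosb in both genotypes (adjusted p = 0.124 and 0.313), of Csrnp1 with DUX4 (0.07, adjusted p = 0.693) and of Egr1 in WT (0.56, 0.125). It called Ier2 lower in FAPs in both genotypes (-0.52, adjusted p = 0.0168, and -0.68, 0.00891) and Jun lower with DUX4 (-0.53, 0.025). This scaling also lowered the share of higher among called genes to 22.3% with DUX4 and 35.4% in WT, against 48.5% and 53.6%.

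Atf3 went the other way. It was at 911, 793, 554 and 446 CPM in PDGDUX, against 1395, 1353, 1381 and 1302 CPM in CD31DUX, and every FAP library lay below every endothelial library. The log2 change was -0.97 ± 0.19 (adjusted p = 0.00071) with DUX4 and -0.62 ± 0.22 (0.0388) in WT, and the WT call was lost without CD31WT replicates 1 or 3 or PDGWT replicates 1 or 2 (adjusted p up to 0.154). Csrnp1 was called with DUX4 (0.47 ± 0.14, adjusted p = 0.0162) and not in WT, and Egr1 in WT (0.86 ± 0.26, 0.0192) and not with DUX4; the difference between the genotypes was not called for either gene (adjusted p = 0.487 and 0.445). Csrnp1 lost its call without CD31DUX replicates 1 or 3 (adjusted p up to 0.0531) and Egr1 without the low-count filter (0.0595), CD31WT replicates 1 or 3 or PDGWT replicate 1 (up to 0.0876). Fos, Jun and Ier2 were not called in either genotype under the scaling used here. Ier2 was called lower in WT with DESeq2 (-0.46, 0.0475), and Fos was called with DUX4 with limma voom (0.33, 0.0339). Without PDGDUX replicate 4, Fos was called with DUX4 at 0.48 (adjusted p = 0.0048), against 0.32 ± 0.15 (0.119) with it.

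Between DUX4 and WT, few members were called in the sorted cells. Of the 10 members, 1 was called in endothelial cells, where 5.07% of all genes were called, and 0 in FAPs, where 3% were. That 1 gene was Myc, at 783 ± 44.7 CPM in CD31DUX (SD, n = 4) and 475 ± 66.1 CPM in CD31WT (n = 3). The lowest CD31DUX library, at 741 CPM, lay above the highest CD31WT library, at 545 CPM, and the log2 change was 0.68 ± 0.13 (adjusted p = 0.00614). The call was made in all 14 alternative fits, with adjusted p-values from 3.66e-05 to 0.0365.

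FAP markers differed between the same libraries, since they summed to 23343 to 28443 CPM in CD31DUX and 7809.9 to 9942 CPM in CD31WT, and 6 of the 8 were called higher with DUX4. Gsn, one of them, averaged 16681 ± 1288 CPM in CD31DUX and 4813 ± 470 CPM in CD31WT. Myc was itself higher in FAPs than in endothelial cells, and the part of FAP RNA in the Myc difference was not tested. Max, which encodes the partner of Myc, was lower in CD31DUX by 1.44 ± 0.30 on the log2 scale (adjusted p = 0.00892), at 13.5 ± 2.71 CPM, against 35.2 ± 17.8 CPM in CD31WT.

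In FAPs, Myc was at 2000.1 ± 309 CPM in PDGDUX (n = 4) and 1873 ± 105 CPM in PDGWT (n = 3), a log2 change of 0.06 ± 0.13 (adjusted p = 0.909). The test of the difference of the DUX4 effect, FAPs minus endothelial cells, gave -0.62 ± 0.19 for Myc (adjusted p = 0.108), so that no difference between the cell types was called for it. The same test called 0 of the 10 members, with 2.25% of all genes called. Myc alone of the 10 members had an unadjusted p under 0.05, and the adjusted p of Myc ran from 0.0523 to 0.268 over its alternatives. In PDGDUX against PDGWT no member had an edgeR p under 0.05 even unadjusted, and every alternative fit also called 0 members. The share of higher among all called genes was 41%, or 30.3% with library totals alone. Among genes around the members, heat shock genes had 3 of 12 lower and 0 higher with DUX4 in each cell type, 5 of 12 lower in FAPs when scaled by library totals alone. Other AP-1 genes had 0 of 12 called in endothelial cells and 1 lower in FAPs, Fosl1 (-1.10). Bhlhe40 was higher in endothelial cells (0.82 ± 0.13, adjusted p = 0.00078) and FAPs (0.65 ± 0.13, 0.00895), as was Thbs1 (1.44 ± 0.20, 0.000373, and 1.23 ± 0.20, 0.00292). Both genes were themselves higher in PDGWT than in CD31WT, by log2 changes of 1.01 for Bhlhe40 and 2.55 for Thbs1. The part of FAP RNA in their endothelial differences was not tested. Klf4 was lower in endothelial cells (-0.56 ± 0.15, 0.0409). Of the feedback regulators in FAPs, Dusp6 was higher (1.79 ± 0.20, 0.000137) and Trib1 lower (-0.66 ± 0.13, 0.0105). For Dusp6 the DUX4 effect, FAPs minus endothelial cells, was called (1.49 ± 0.28, 0.00809).

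Replicate 4 of PDGDUX was the lowest of the 4 in 9 of the 10 members, Junb being the exception. Egr1 was at 6677, 6681, 3856 and 2768 CPM in PDGDUX, against 7137, 6971 and 6528 CPM in PDGWT. Replicates 3 and 4 of PDGDUX stood below all PDGWT libraries and replicates 1 and 2 within their range, and the log2 change was -0.50 ± 0.24 (adjusted p = 0.366).

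**Figure D4:**
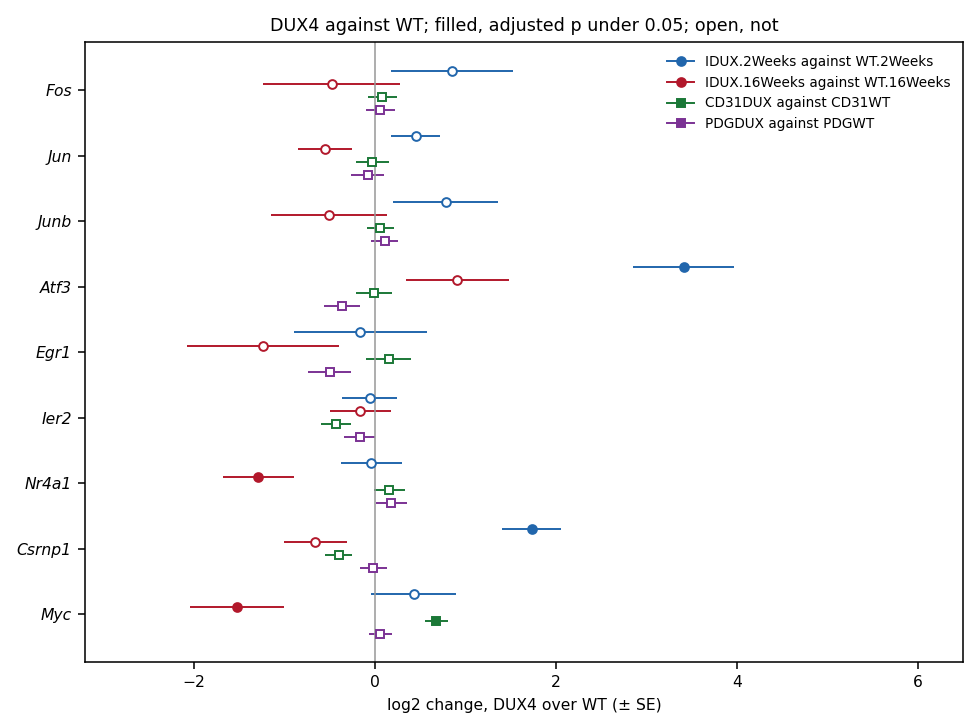
Log2 change of 9 immediate early genes with DUX4 over WT (points, with SE bars) in whole muscle at 2 weeks (blue circles), whole muscle at 16 weeks (red circles), endothelial cells (green squares) and FAPs (purple squares); filled symbols have an adjusted p under 0.05. Only Atf3 and Csrnp1 at 2 weeks, Nr4a1 and Myc at 16 weeks and Myc in endothelial cells are filled.

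In whole muscle at 2 weeks, Atf3 and Csrnp1 were higher with DUX4, and the other 8 members were not called, while 17.6% of all genes were. Atf3 was at 68.4, 67.9, 93.3, 45.3 and 82.6 CPM in IDUX.2Weeks, against 10.5, 4.41, 14.4, 3.66 and 2.44 CPM in WT.2Weeks. The groups did not overlap, with the lowest DUX4 library at 45.3 CPM and the highest WT library at 14.4 CPM. The log2 change was 3.41 ± 0.56 (adjusted p = 0.000472), and the call was made in all 20 alternative fits, with adjusted p-values from 1.05e-09 to 0.0298.

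Csrnp1 was at 9.71, 7.1, 12.4, 5.44 and 6.51 CPM in IDUX.2Weeks, against 2.53, 2.38, 1.57, 2.26 and 4.35 CPM in WT.2Weeks. The groups did not overlap, and the highest WT library, replicate 5, came close to the lowest DUX4 library, replicate 4. The log2 change was 1.73 ± 0.33 (adjusted p = 0.00159). The 2-week libraries form 2 sets: Hoxd8, a gene that marks position along the body, was at 55.8 to 84.2 CPM in replicates 1 to 3 and at 4.86 to 6.26 CPM in replicates 4 and 5 of both genotypes. With a term for the 2 sets both calls stood, at 3.55 for Atf3 and 1.70 for Csrnp1. Within replicates 1 to 3 the change was 2.99 for Atf3 (adjusted p = 0.0101) and 2.19 for Csrnp1 (0.00285). Within replicates 4 and 5 it was 4.44 for Atf3 (0.0298) and 0.92 for Csrnp1 (0.462), so that the call of Csrnp1 did not hold in the smaller set.

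The AP-1 members Fos, Jun and Junb had estimates above 0 at 2 weeks but were not called. Other uncalled members had lower group means in IDUX.2Weeks than in WT.2Weeks. These were Egr1 (27.4 against 32.4 CPM), Ier2 (9.09 against 9.94 CPM) and Nr4a1 (121 against 130.1 CPM). Junb was at 26.4, 24, 26.1, 6.82 and 17.1 CPM in IDUX.2Weeks, against 13.9, 13.1, 15.2, 14.8 and 4.67 CPM in WT.2Weeks, a log2 change of 0.78 ± 0.58 (adjusted p = 0.394). Fos ranged from 4.75 to 40.4 CPM in IDUX.2Weeks, against 1.27 to 27.6 CPM in WT.2Weeks (0.85 ± 0.67, adjusted p = 0.424). Jun had a log2 change of 0.45 ± 0.27 (adjusted p = 0.273), and was called with library totals alone (0.79, adjusted p = 0.0421). The groups overlapped in Fos and Junb. IDUX.2Weeks replicate 4 was the lowest DUX4 library in both, and in 7 of the 10 members, with Atf3 and Csrnp1 among them. That library also had the highest summed level of muscle fibre markers of its group, 133816 CPM, against 64154 to 96675 CPM in the other 4. Muscle fibre markers summed to 136708 to 158475 CPM in WT.2Weeks, and 5 of the 8 were called lower with DUX4, or 2 with library totals alone. Leukocyte markers had 2 of 7 called higher and 0 lower, Cd68 (3.67 ± 0.84, adjusted p = 0.00624) and Csf1r (1.39 ± 0.46, 0.0447), and summed to 66.4 to 180.5 CPM in IDUX.2Weeks and 18.3 to 123 CPM in WT.2Weeks. Mural cell markers had 2 of 6 called lower, Abcc9 (-0.67 ± 0.18, 0.0183) and Kcnj8 (-1.39 ± 0.45, 0.0411). Endothelial and FAP markers had 0 of 8 called each. The part of these cell types in the members' levels, those of Atf3 and Csrnp1 included, was not tested.

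Few genes around the members moved at 2 weeks. Of the other AP-1 genes 0 of 10 were called higher and 1 lower, of the other early-response factors 1 of 16 was higher and 1 lower, and of the feedback regulators 2 of 21 were higher and 1 lower. Dusp2, a phosphatase gene of the feedback list, averaged 13.7 ± 6.92 CPM in IDUX.2Weeks (n = 5) and 0.665 ± 0.478 CPM in WT.2Weeks (n = 5), a log2 change of 4.42 ± 0.76 (adjusted p = 0.000713). Gadd45b, a stress gene of the same list, was lower, at 9.14 ± 3.05 CPM in IDUX.2Weeks and 21.2 ± 5.03 CPM in WT.2Weeks (-1.14 ± 0.24, 0.00369). Of 12 heat shock genes 5 were higher and 0 lower, and 9 were higher when libraries were scaled by totals alone, a setting that moved the median of all genes by 0.34 and the share of higher among called genes from 63.3% to 92.7%. Hspa1b, an inducible HSP70 gene, averaged 58.7 ± 64.3 CPM in IDUX.2Weeks and 3.77 ± 1.97 CPM in WT.2Weeks (4.05 ± 0.68, adjusted p = 0.000629). The partners of Myc had 1 call of 9, Mxi1, which was lower with DUX4 by 0.73 ± 0.10 on the log2 scale.

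**Figure D5:**
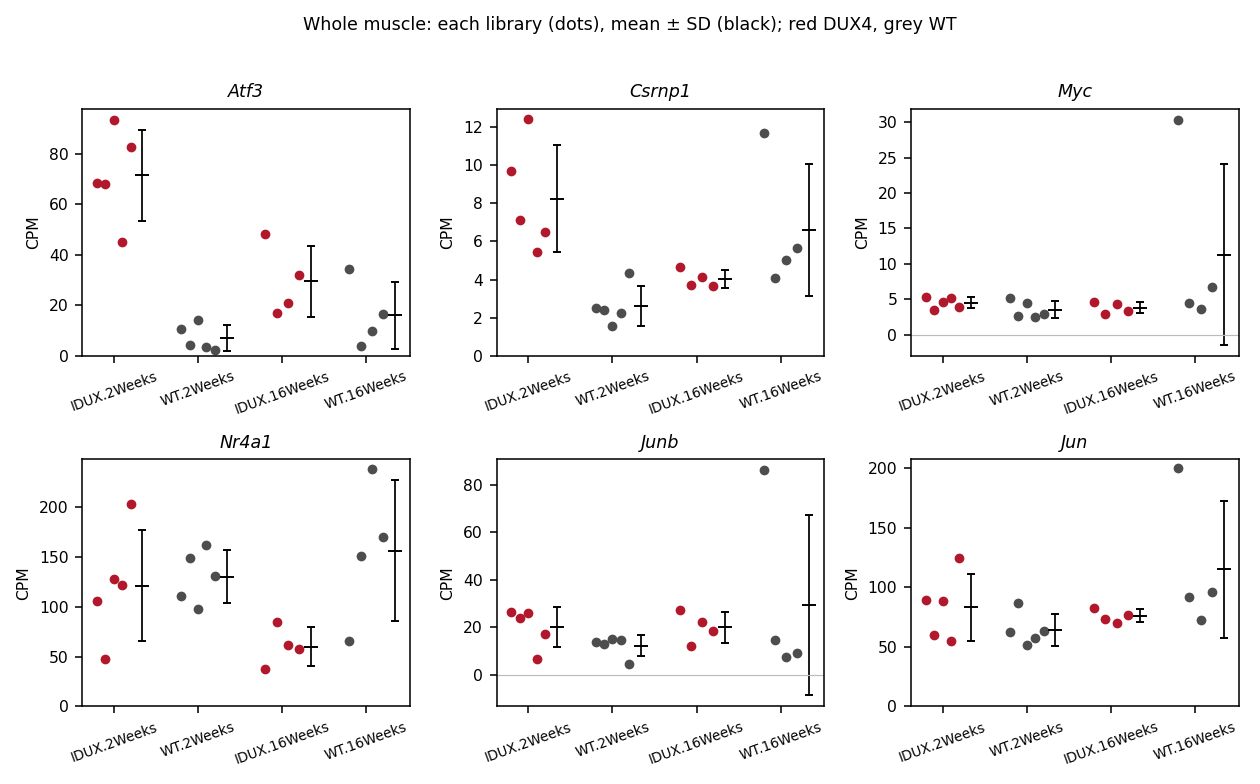
CPM of 6 immediate early genes in each whole-muscle library (dots; red DUX4, grey WT), with the mean ± SD of each group in black. Atf3 and Csrnp1 separate IDUX.2Weeks from WT.2Weeks, and WT.16Weeks replicate 1 is the highest library of its group in each gene shown but Nr4a1, where it is the lowest.

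At 16 weeks, Nr4a1 and Myc were lower with DUX4 and the other 8 members were not called, while 26.6% of all genes were. Nr4a1 was at 37.3, 84.2, 61.1 and 57.1 CPM in IDUX.16Weeks, against 65.7, 151, 238 and 169.6 CPM in WT.16Weeks. The ranges overlapped, since DUX4 replicate 2 lay above WT replicate 1. The log2 change was -1.29 ± 0.39 (adjusted p = 0.0213), and leaving out replicate 3 of WT.16Weeks, or replicate 1 or 4 of IDUX.16Weeks, ended the call (adjusted p up to 0.0697).

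Myc was at 4.57, 2.92, 4.3 and 3.4 CPM in IDUX.16Weeks, against 30.3, 4.52, 3.69 and 6.73 CPM in WT.16Weeks. The log2 change of -1.52 ± 0.52 (adjusted p = 0.0383) rested on WT.16Weeks replicate 1. Without that library it was -0.29 (0.494), and the call was also lost without any 1 of the 4 IDUX.16Weeks libraries (adjusted p from 0.0642 to 0.0908). That library was the highest of its group in 8 of the 10 members. Its 10 glucocorticoid targets summed to 4438 CPM, against 669 to 908 CPM in the other 3 WT.16Weeks libraries and 625 to 838 CPM in IDUX.16Weeks. Of these targets 7 of 10 were called lower with DUX4 with all libraries, and 3 were lower and 2 higher without WT.16Weeks replicate 1.

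Leaving out that library changed the calls of the members to 1 higher, Atf3, and 1 lower, Nr4a1. Atf3 was at 48.2, 16.9, 21 and 32.1 CPM in IDUX.16Weeks, against 34.5, 3.73, 10 and 16.5 CPM in WT.16Weeks, and the groups overlapped. Its log2 change was 0.91 ± 0.57 (adjusted p = 0.257) with all libraries and 1.65 (0.0451) without WT.16Weeks replicate 1. Of the genes around the members, 3 of 10 other AP-1 genes, 3 of 16 other early-response factors and 3 of 14 upstream kinases and factors were called lower with DUX4 at 16 weeks and none higher in these lists, while 12.5% of all genes were called lower. Feedback regulators had 2 of 21 higher and 1 lower, with Btg1 at 0.68 ± 0.19 (adjusted p = 0.0145) and Gadd45b at -1.07 ± 0.27 (0.00885). Partners and antagonists of Myc had 2 of 9 higher and 3 lower, the smallest p-values being those of Mxi1 (-0.66 ± 0.11) and Mga (-0.62 ± 0.11). Scaling by library totals alone, which moved the median of all genes by 0.35 and the share of higher among called genes from 52.9% to 89.8%, left 0 of the 10 AP-1 genes called. Ptgs2 was higher with DUX4, at 2.68 ± 1.26 CPM in IDUX.16Weeks and 0.24 ± 0.0772 CPM in WT.16Weeks (3.45 ± 0.53, adjusted p = 0.000225).

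Markers of several cell types differed between the groups at 16 weeks. Muscle fibre markers had 4 of 8 called lower with DUX4 and summed to 62953 to 87327 CPM in IDUX.16Weeks, against 117860 to 162158 CPM in WT.16Weeks. FAP markers had 2 of 8 higher, Col1a1 (2.18 ± 0.40, adjusted p = 0.000935) and Lum (1.54 ± 0.46, 0.0203), and 1 lower. Their summed level had a median of 1096 CPM in IDUX.16Weeks and 746 CPM in WT.16Weeks. Leukocyte markers had 1 of 7 higher, Ptprc (1.93 ± 0.57, 0.0194), and 5 of 7 without WT.16Weeks replicate 1. Satellite cell markers had 2 of 4 higher, Myf5 (1.58 ± 0.38, 0.00596) and Chodl (1.67 ± 0.41, 0.00652), mural cell markers 1 of 6 lower, and endothelial markers 0 of 8 called. The part of these cell types in the levels of Nr4a1, Myc and the other members was not tested.

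The DUX4 effect at 16 weeks minus that at 2 weeks was called for 1 of the 10 members, Csrnp1, and for 0.299% of all genes (63% of them higher, or 81.8% with library totals alone). The difference was -2.39 ± 0.48 (adjusted p = 0.0446). Csrnp1 was at 4.67, 3.69, 4.11 and 3.64 CPM in IDUX.16Weeks, against 11.7, 4.08, 5 and 5.67 CPM in WT.16Weeks, so that the group order at 16 weeks was opposite to that at 2 weeks. The call was made in 7 of 26 alternative fits, with adjusted p-values from 0.000768 to 0.105, and without WT.16Weeks replicate 1 the difference was -1.92 (0.0573). For Atf3 the difference was -2.51 ± 0.78 (0.152).

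Between the times, 0 of the 10 members were called with DUX4 and 3 in WT. In IDUX.16Weeks against IDUX.2Weeks 7.25% of all genes were called, and the members with an unadjusted p under 0.05 were Csrnp1 (-0.99 ± 0.34), Nr4a1 (-0.96 ± 0.37) and Atf3 (-1.25 ± 0.54), with edgeR adjusted p-values of 0.0901, 0.134 and 0.196. In WT.16Weeks against WT.2Weeks 13.6% of all genes were called. Csrnp1 (1.40 ± 0.34, adjusted p = 0.0149), Myc (1.76 ± 0.49, 0.0267) and Jun (0.90 ± 0.28, 0.0438) were higher at 16 weeks, and none of the 3 was called without WT.16Weeks replicate 1, with changes of 0.93 (0.0702), 0.53 (0.259) and 0.47 (0.216). With 2-week replicates 1 to 3 only, Myc (1.53, edgeR adjusted p = 0.118) and Jun (0.83, 0.0887) also lost their calls. With only the groups compared all 3 did (edgeR adjusted p from 0.0777 to 0.13).

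Across libraries of the same kind the members varied together only in part. Over the 18 whole-muscle libraries after centring on group means, the median Pearson r of log2 CPM over the 45 pairs of members was 0.37 and 33 pairs were above 0. Without WT.16Weeks replicate 1 this median was 0.26 with 32 pairs above 0. Over the 14 sorted libraries it was 0.48 with 43 pairs above 0, and 0.35 with 33 pairs above 0 without PDGDUX replicate 4. The genes of a library share its scaling, so these values are a description. The mean of the members in each library, with log2 CPM centred on group means, was then set beside all other genes. Btg2, an antiproliferative gene of the early response, was most like them in whole muscle (r = 0.86 over 18 libraries, 0.83 without WT.16Weeks replicate 1). Haus1 (0.85), Gm6472 (0.84), Rit1, 1810037I17Rik and Yipf1 (each 0.83) followed, with 0.76 to 0.79 without that library. In sorted cells the most alike were Plcd3 (r = 0.93 over 14 libraries, 0.85 without PDGDUX replicate 4), Tbkbp1, Btbd19, Mecom and Crybg3 (each 0.92) and Slco2b1 (0.91). Without PDGDUX replicate 4 the r of these genes was 0.82 to 0.85. By rank (Spearman) the correlation over all 14 libraries was only 0.6 for Mecom and 0.74 for Tbkbp1, and 0.86 to 0.94 for the others.

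Taking Fosb as listed, in every member the order of group means placed all 4 sorted groups above all 4 whole-muscle groups. Among the whole-muscle groups, neighbours in that order overlapped in each of the 10 genes, libraries at 0 included. Among the sorted groups, the ranges of neighbours stayed apart for PDGWT above CD31DUX in Junb, Nr4a1 and Myc, for CD31WT above PDGWT in Atf3, for CD31DUX above CD31WT in Fos and Myc, and for CD31WT above CD31DUX in Csrnp1. All other neighbours among the sorted groups overlapped. The share of all genes whose ranges stayed apart between these groups was not counted, so these steps are only a description. Of these steps, those of Myc from CD31DUX to CD31WT and of Atf3 between CD31WT and PDGWT were called, those of Fos and Csrnp1 between CD31DUX and CD31WT were not (adjusted p = 0.872 and 0.159), and those between PDGWT and CD31DUX were not tested.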

How the data were processed

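RNA-seq of 32 mouse libraries was deposited as 1 table of estimated counts per library, which the authors made with Salmon 0.6.0 after CASAVA 1.8 on mm10, per the submitters' processing notes. No source used here gives the annotation behind the counting or its use of strand. Expected counts were rounded to whole numbers and tested with edgeR 4.0.16 (robust quasi-likelihood, trimmed-mean scaling, a filter at 10 counts, Benjamini-Hochberg over all genes) in 3 fits, over 18 whole-muscle, 14 sorted and all 32 libraries. The procedure was tested on simulated data first. Replicate libraries were compared, and none agreed within sampling noise (lowest chi-square per degree of freedom 15.67). Symbols were matched for 42459 of 43035 rows. DESeq2 1.42.0, limma 3.58.1, other scalings and filters, other sets of libraries and leaving out each library served as alternatives.

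The 10 genes and the lists around them were chosen with earlier results of these data known. All 10 were named in every comparison, and of each other list the called genes with the smallest p, at most 2 per comparison, could be named. Promoter sequences are from RefSeq.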

Additional observations from a re-analysis of the deposited data

Results flagged for a closer look

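In 59 sets of a gene and a group with 4 or 5 libraries, 6 held a library whose gap to the nearest other, set against the whole range of the group, exceeded Dixon's 95% critical value; chance flags about 1 in 20 such sets. Fosb stood at 1.28 CPM in IDUX.16Weeks replicate 4 and was listed at 0 in the other 3 libraries, and such zeros can be failed estimates. Replicate 5 of WT.2Weeks had 4.67 CPM of Junb and the others 13.1 to 15.2 CPM, while replicate 1 of WT.16Weeks had 86.1 CPM and the others 7.63 to 14.9 CPM. Egr1 stood at 8.61 CPM in IDUX.16Weeks replicate 2, against 24.3 to 25.2 CPM. Ier2 stood at 863 CPM in CD31DUX replicate 1, against 708 to 718 CPM. Myc stood at 30.3 CPM in WT.16Weeks replicate 1, against 3.69 to 6.73 CPM.

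The DUX4 effect on Csrnp1 differed between the times by edgeR's test of the difference itself, -2.39 on the log2 scale for 16 weeks minus 2 weeks (adjusted p = 0.0446, and 0.000768 to 0.105 over its alternatives).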

How the results depend on the processing

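Under the alternatives the 10 genes gave 2639 results, of which 2550 kept their direction and side of the threshold or stayed uncalled, 72 lost a call, 16 gained one and 1 reversed: Myc at 16 weeks, 0.01 without WT.16Weeks replicates 1 and 4. The count of called members moved as follows, and the cause was not tested. For IDUX.2Weeks against WT.2Weeks it was 1 in place of 2 with replicates 4 and 5 only, where all genes called fell to 360, against 2717. For IDUX.16Weeks against WT.16Weeks it was 1 in place of 2 with library totals alone, without the low-count filter and with only the groups compared, and 0 to 2 without 1 library. For the DUX4 effect at 16 minus 2 weeks it was 2 in place of 1 with DESeq2, 0 with library totals alone, without the filter and without WT.16Weeks replicates 1 and 4, and 0 to 1 without 1 library. For IDUX.16Weeks against IDUX.2Weeks it was 2 in place of 0 with limma voom and with only the groups compared, and 1 with 2-week replicates 1 to 3. For WT.16Weeks against WT.2Weeks it was 1 in place of 3 with limma voom and with 2-week replicates 1 to 3, 2 without the filter, 0 with only the groups compared and without WT.16Weeks replicates 1 and 4, and 0 to 3 without 1 library. For PDGWT against CD31WT it was 7 in place of 6 with DESeq2, 5 with RLE size factors, library totals alone, no filter and only the groups compared, and 3 to 5 without 1 library. For PDGDUX against CD31DUX it was 7 in place of 6 with limma voom and 5 to 7 without 1 library. All 10 members were called in sorted cells against whole muscle under each alternative that gave them an adjusted p. All genes called ranged from 19 to 466 for the DUX4 effect at 16 minus 2 weeks (46; 8 to 57 without 1 library), from 360 to 4686 at 2 weeks (2717), from 779 to 2194 for IDUX.16Weeks against IDUX.2Weeks (1116), and from 514 to 3402 for WT.16Weeks against WT.2Weeks (2091). They ranged from 715 to 1460 for CD31DUX against CD31WT (863), from 483 to 1038 for PDGDUX against PDGWT (510) and from 348 to 824 for the DUX4 effect in FAPs minus endothelial cells (383), and without 1 library from 520, 291 and 238 upwards. Without 1 library, the counts between the times fell to 682 with DUX4 and 1251 in WT. No paired analysis was possible because the labels give no replicate numbers shared between groups: numbers here follow the order of deposit and only name libraries. At 2 weeks, fitting the 2 sets as a block kept both members called. The counts of other lists under other scalings, and without WT.16Weeks replicate 1 or PDGDUX replicate 4, were chosen after seeing the data. Fosb in whole muscle is limited by its values of exactly 0 in 12 of 18 libraries, which can be failed estimates.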
